A study of Mus musculus with 16 samples.

Results

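Slc6a11, Slc6a9, Slc7a10, Abat and Maob are 5 genes of inhibitory transmitter and D-serine handling that astrocytes express. They were chosen by name from the 39171 features of a table of FPKM values (fragments per kilobase of transcript, scaled to the fragments of the library), and each name matched 1 row. Slc6a11 encodes the GABA transporter GAT-3, Slc6a9 the glycine transporter GlyT1, and Slc7a10 the exchanger Asc-1, which carries small neutral amino acids such as glycine, alanine and D-serine. Abat encodes the mitochondrial GABA transaminase, which starts the breakdown of GABA. Maob encodes monoamine oxidase B, which does not break down GABA but oxidises monoamines and takes part in a route from putrescine to GABA.

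Astrocytes take up GABA and glycine with sodium-coupled transporters, which ends transmitter action and sets the level around receptors. Inside the cell GABA is turned into succinic semialdehyde and then succinate. Glycine acts beside GABA in the spinal cord as a main inhibitory transmitter, while glycine and D-serine also act as co-agonists of NMDA receptors.

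The 16 libraries came from 4 C57BL/6 mice at postnatal day 15. All mice were heterozygous for an mCherry reporter of Il33, an alarmin cytokine gene, and carried a GFP reporter of the astrocyte gene Aldh1l1, so no library came from a mouse without the reporters. From each mouse, thalamic and spinal cord cells labelled as astrocytes were flow sorted into an mCherry-positive and an mCherry-negative population. This gave 4 groups of 4 libraries: thalamus negative, thalamus positive, spinal cord negative and spinal cord positive. The sources used here do not say how GFP was gated. Summed FPKM per library was 1402061 to 2344483 in thalamus negative and 1233151 to 2233820 in spinal cord negative libraries. In positive libraries it was 1092783 to 1283876 (thalamus) and 984986 to 1182121 (spinal cord). In negative libraries 13385 to 14234 (thalamus) and 13260 to 14012 (spinal cord) features reached 1 FPKM. In positive ones 14418 to 14731 and 14074 to 14285 did. The part of these gate differences in the results was not tested.

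The Il33 transcript itself had means of 18.6 ± 6.01 (thalamus negative), 27.4 ± 3.41 (thalamus positive), 24.6 ± 7.93 (spinal cord negative) and 27.9 ± 3.49 FPKM (spinal cord positive; SD, n = 4). Il33 did not pass the test between the gates in either region (limma adjusted p = 0.0736 and 0.559), the gates overlapped in both, and the positive gate held more of it in 4 of 4 thalamus and 3 of 4 spinal cord pairs. All 12 pan-astrocyte markers were present in every group. Their summed level, in the same order of groups, was 6722 to 8852, 6343 to 7741, 9381 to 11400 and 13510 to 15210 FPKM. Atp1b2 and Slc1a2 made up most of the last (means of 6586 and 2946 FPKM). Slc1a3 ran the other way, at 211 FPKM there against 624 FPKM in thalamus positive libraries. Of the 12, 1 was higher and 3 lower in positive thalamus libraries (11.6% and 13.6% of all features). In positive spinal cord libraries 5 were higher and 0 lower (9.04% and 10.5%). The negative libraries also held RNA of other cells. The sum of 10 oligodendrocyte markers was 387 to 895 FPKM in thalamus negative and 3230 to 3455 FPKM in spinal cord negative libraries, against 57.7 to 87.0 and 126 to 140 FPKM in positive ones. The sum of 8 ependymal markers was 360 to 690 FPKM in thalamus negative and 109 to 163 FPKM in spinal cord negative libraries, against 6.29 to 7.36 and 2.19 to 5.95 FPKM in positive ones. All 10 and all 8 were lower in the positive gate in both regions. The sum of 6 oligodendrocyte precursor markers was 167 to 282 and 451 to 585 FPKM in negative libraries, against 80.5 to 131 and 164 to 191 FPKM. Olig1 made up most of the positive sums (means of 103 and 177 FPKM, against 168 and 221.5 FPKM in negative libraries). Sox10 had means of 0.824 and 0.841 FPKM in positive libraries against 17.7 and 96.3 FPKM, Gpr17 0.284 and 0.397 against 12.6 and 65.2 FPKM, and Bmp4 0.525 and 0.678 against 20.6 and 123 FPKM. The neuron sum (6 markers) reached 82.4 FPKM in mCherry-negative and 25.0 FPKM in mCherry-positive libraries, the mural and fibroblast sum (6 markers) 108 and 31.03 FPKM, the endothelial sum (5 markers) 29.6 and 4.05 FPKM, and the microglia sum (5 markers) 30.7 and 25.7 FPKM. Rgs5 made up most of the mural and fibroblast sum in negative libraries (means of 68.25 FPKM in thalamus and 56.3 FPKM in spinal cord, against 5.43 and 6.04 FPKM in positive ones). In the spinal cord Col1a1 and Dcn were higher in positive libraries (means of 7.86 against 2.75 and 6.59 against 3.10 FPKM). Of the 5 tested markers of that list, 1 passed as higher and 1 as lower between the spinal cord gates. No marker of these lists was at 0 in every library of a group. Their part in the results below was not tested. In such sorted populations fewer cells of a type and less RNA per cell cannot be told apart.

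In the thalamus, Slc7a10 rose by 0.53 ± 0.18 on the log2 scale in positive libraries, while Abat fell by 0.9995 ± 0.22 and Maob fell by 1.19 ± 0.21 (SE). The thalamus call of Slc7a10 was lost in 11 of 19 other settings (adjusted p up to 0.143), and that of Abat without mouse 3 or 4 (0.0594 and 0.0545). In the spinal cord Slc7a10 rose by 1.55 ± 0.18 and no other of the 5 genes passed the test. Between the regions, Slc7a10 and Slc6a9 were higher in the spinal cord in positive libraries, by 1.34 ± 0.18 and 1.49 ± 0.34. The call of Slc6a9 was lost in 6 of 19 other settings (limma adjusted p up to 0.21), and its exons overlap those of other genes. In negative libraries Maob was lower in the spinal cord by a log2 difference of -1.06 ± 0.21, a call lost in 3 of 19 other settings (up to 0.127). Slc6a11, the most abundant of the 5, passed the test in none of the comparisons. These differences are of log2(FPKM + 1), fitted with limma over all 16 libraries, and a gene passed at a Benjamini-Hochberg adjusted p under 0.05 over the 16340 features tested.

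Against these counts stand the shares of all features that passed. In the thalamus 3 of the 5 genes passed, 1 higher (Slc7a10) and 2 lower, while 25.2% of features passed, 11.6% higher and 13.6% lower. Spinal cord gates gave 1 of 5, higher, with 19.6% of features passing and 9.04% higher. Spinal cord against thalamus gave 1 of 5 in negative libraries, lower, with 9.81% of features passing, 5.27% higher and 4.54% lower. In positive libraries it gave 2 of 5, both higher, with 6.10% of features passing, 4.22% higher and 1.88% lower. The test of whether the gate difference differed between regions was passed by 0 of 5 genes and by 2.56% of features, 1.13% higher and 1.43% lower. For the gates the median log2 difference of the 5 genes was -0.06 (thalamus) and 0.65 (spinal cord), beside 0.06 and 0.09 for all features. For the regions it was 0.23 (negative) and 0.66 (positive), beside -0.0041 and -0.0014 for all features. The comparisons share libraries, so their results are not independent of each other.

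**Figure D1:**
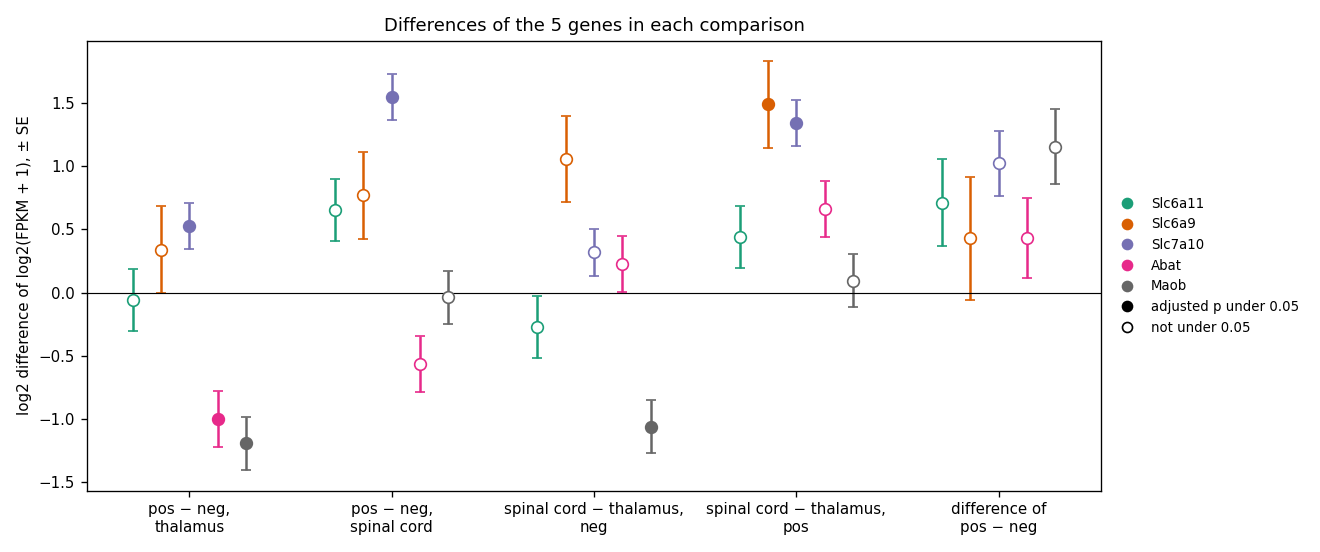
Difference of each gene in each comparison on the log2(FPKM + 1) scale, with its SE from the limma fit over 16 libraries; filled points have an adjusted p under 0.05. Slc7a10 lies above 0 in all 5 comparisons and passes in 3, and Maob passes in 2 comparisons that thalamus negative libraries enter, at -1.19 and -1.06.

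Slc6a11 (ENSMUSG00000030307, GRCm38 chromosome 6, 114131241 to 114249952, plus strand) takes GABA into astrocytes. Its level ranked 27 to 47 among 21224 protein-coding genes by group mean. In mice 1 to 4 it was at 689, 524, 1127 and 1111 FPKM in thalamus negative libraries and at 1018, 613, 830.4 and 744 FPKM in thalamus positive ones. Spinal cord libraries held it at 571, 606, 813 and 757 FPKM in mCherry-negative and at 963, 1125, 1209 and 1001 FPKM in positive libraries. The thalamus gates overlapped, with mice 3 and 4 high in the negative gate, while every spinal cord positive library lay above every negative one.

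The spinal cord difference of Slc6a11 was 0.65 ± 0.24 (SE), higher in 4 of 4 mice, and missed the threshold with a limma adjusted p of 0.0754. It passed when only the spinal cord libraries were fitted (adjusted p = 0.0272, 0.0272 to 0.644 over 19 other settings). The thalamus difference was -0.06 ± 0.24, with 2 mice higher and 2 lower (adjusted p = 0.888), and its sign turned when 1 of 3 libraries, negative mouse 3 or 4 or positive mouse 2, was left out. By group mean the order was spinal cord positive (1075 ± 113 FPKM), thalamus negative (863 ± 303), thalamus positive (802 ± 169.9) and spinal cord negative (687 ± 117; SD, n = 4). Of the neighbours in this order, none had ranges that stayed apart.

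Start regions are shown for Slc6a11 and the other transporters, since the RefSeq regions used here held these 3 but not Abat or Maob. Each is 250 bases before to 50 bases after the RefSeq start in GRCm38.p6, on the plus strand, and capitals mark the GC box GGGCGG or its reverse complement. Of 32851 RefSeq start regions of this length, 35.7% hold that motif on either strand. The region of Slc6a11, chr6:114130991-114131290, holds 4 matches that do not overlap each other and has 72.3% G or C, against a median of 52.7% for all start regions.
Slc6a11: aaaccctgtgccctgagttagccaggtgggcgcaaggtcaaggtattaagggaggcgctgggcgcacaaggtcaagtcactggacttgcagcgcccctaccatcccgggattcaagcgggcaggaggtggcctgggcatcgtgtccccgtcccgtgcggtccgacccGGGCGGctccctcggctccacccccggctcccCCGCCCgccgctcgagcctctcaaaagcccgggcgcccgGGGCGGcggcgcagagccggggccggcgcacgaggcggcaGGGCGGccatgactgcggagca

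Slc6a9 (ENSMUSG00000028542, GRCm38 chromosome 4, 117834506 to 117875198, plus strand) takes up glycine. In mice 1 to 4 it was at 80.5, 67.9, 125 and 225 FPKM in thalamus negative and at 175, 109, 135 and 155 FPKM in thalamus positive libraries. Its spinal cord values were 129.6, 315, 244 and 295 FPKM in mCherry-negative and 355, 377, 495 and 378 FPKM in positive libraries. Every positive spinal cord library lay above all other libraries of the study, and in negative spinal cord libraries only mouse 1 fell within the thalamus range.

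In positive libraries Slc6a9 was 2.80-fold higher in the spinal cord by group means, 401 ± 63.5 against 143 ± 28.2 FPKM (SD, n = 4). All 4 mice showed this direction. Its log2 difference of 1.49 ± 0.34 (SE) had a limma adjusted p of 0.0167. The call was lost without thalamus positive mouse 2 or 3, without spinal cord positive mouse 3, and without mouse 2 or 3 altogether (adjusted p = 0.0504 to 0.21). It was also lost when libraries were rescaled to the pan-astrocyte markers (0.92, adjusted p = 0.0549), which were themselves higher in the spinal cord in 7 of 12 and lower in 1, and the adjusted p ran from 9.7e-04 to 0.21 over 19 other settings. In negative libraries the regional difference was 1.06 ± 0.34 (adjusted p = 0.0684), higher in 4 of 4 mice. It passed without thalamus negative mouse 4 (1.39, adjusted p = 0.0091) or without spinal cord negative mouse 1 (1.34, adjusted p = 0.0189), with a range of 0.0091 to 0.365 over 19 other settings. The gates differed by 0.77 ± 0.34 for spinal cord (adjusted p = 0.135, higher in 4 of 4 mice without overlap) and by 0.34 ± 0.34 in the thalamus (adjusted p = 0.502, higher in 3 of 4). The order of the groups was thus spinal cord positive, spinal cord negative, thalamus positive and thalamus negative. Of its neighbours the first pair had ranges that stayed apart and the others overlapped.

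The level of Slc6a9 is uncertain because its exons overlap those of Ccdc24, a coiled-coil protein gene on the other strand, over 1429 bases, which is 27.8% of the exonic bases of Slc6a9. Ccdc24 ran in the same group order, at means of 97.2 and 127 FPKM in thalamus negative and positive and 159 and 315 FPKM in spinal cord negative and positive libraries. The non-coding gene Gm17114, also on the other strand, shares 511 bases (9.94%). Its means were 8.04, 7.35, 20.7 and 27.2 FPKM in the same groups. B4galt2, on that strand too, shares 46 bases (0.895%). The sources used here do not state whether the authors' counting used strand. Without strand, reads of the shared bases cannot be told apart.

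RefSeq lists 3 start regions for Slc6a9, and the deposited values do not separate them. The first, chr4:117835008-117835307, has 59.0% G or C and holds 2 matches to the GC box, while the other two hold 0.
Slc6a9: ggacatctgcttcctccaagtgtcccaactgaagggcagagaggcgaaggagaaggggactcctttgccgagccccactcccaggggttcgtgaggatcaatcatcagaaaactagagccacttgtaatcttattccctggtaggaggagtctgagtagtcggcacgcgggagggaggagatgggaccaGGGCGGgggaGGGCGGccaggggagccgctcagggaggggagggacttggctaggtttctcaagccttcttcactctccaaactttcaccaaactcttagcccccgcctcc

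Slc7a10 (ENSMUSG00000030495, GRCm38 chromosome 7, 35186385 to 35201114, plus strand) exchanges D-serine and glycine with other small neutral amino acids. In mice 1 to 4 it was at 224, 211, 189 and 178 FPKM in thalamus negative and at 343, 352, 234 and 244 FPKM in thalamus positive libraries. Spinal cord libraries gave 314, 196, 232 and 271 FPKM in mCherry-negative and 801, 800.2, 722 and 618 FPKM in positive libraries. The positive library was the higher one in each of the 8 mouse and region pairs, and the gates did not overlap in either region.

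By group means Slc7a10 was 2.91-fold higher in positive spinal cord libraries, 735 ± 86.7 against 253 ± 50.7 FPKM (SD, n = 4), with a log2 difference of 1.55 ± 0.18 (SE) and a limma adjusted p of 3.15e-05. It passed in all 19 other settings, from 1.04 after rescaling to the pan-astrocyte markers to 1.67. In the thalamus it was 1.46-fold higher, 293 ± 63.2 against 201 ± 20.6 FPKM, with a limma adjusted p of 0.0482. That call was lost in 11 of 19 other settings (adjusted p = 0.0208 to 0.143). Among these were leaving out negative mouse 2, 3 or 4, positive mouse 1 or 2, or all libraries of any 1 mouse, and fitting only the thalamus libraries (0.0902).

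The spinal cord positive group also stood above the thalamus positive one for Slc7a10, 2.51-fold by group means and in 4 of 4 mice (1.34 ± 0.18, limma adjusted p = 3.4e-04). This passed in all 19 other settings, from 0.77 with the pan-astrocyte rescaling to 1.44. In negative libraries the regions overlapped, with a difference of 0.32 ± 0.18 (adjusted p = 0.332). The gate difference was larger in the spinal cord by 1.02 ± 0.26 on the log2 scale, which missed the threshold (adjusted p = 0.0524) and passed with the mouse as a block (adjusted p = 0.0449, 0.0263 to 0.354 over 26 other settings). By group mean the order was spinal cord positive, thalamus positive, spinal cord negative and thalamus negative, and only the first of these neighbouring pairs had ranges that stayed apart.

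Exons of Slc7a10 overlap those of Lrp3, a lipoprotein receptor-related gene on the other strand, over 377 bases or 17.9% of its exonic bases. Lrp3 was at means of 27.7, 46.8, 37.1 and 128 FPKM in thalamus negative, thalamus positive, spinal cord negative and spinal cord positive libraries, the same order as Slc7a10. Reads of the shared bases cannot be told apart without strand. The start region of Slc7a10, chr7:35186135-35186434, has 70.7% G or C and holds 2 matches to the GC box, 1 on each strand. None of the 3 regions printed holds the TATA box TATAAA, which 13.6% of all start regions hold on either strand, or the CCAAT box CCAAT, which 37.4% hold.
Slc7a10: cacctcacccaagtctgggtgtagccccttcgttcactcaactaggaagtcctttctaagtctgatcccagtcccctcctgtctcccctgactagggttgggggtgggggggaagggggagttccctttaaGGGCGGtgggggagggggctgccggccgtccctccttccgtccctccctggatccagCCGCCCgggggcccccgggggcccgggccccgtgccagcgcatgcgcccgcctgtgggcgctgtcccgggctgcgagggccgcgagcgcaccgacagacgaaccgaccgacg

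**Figure D2:**
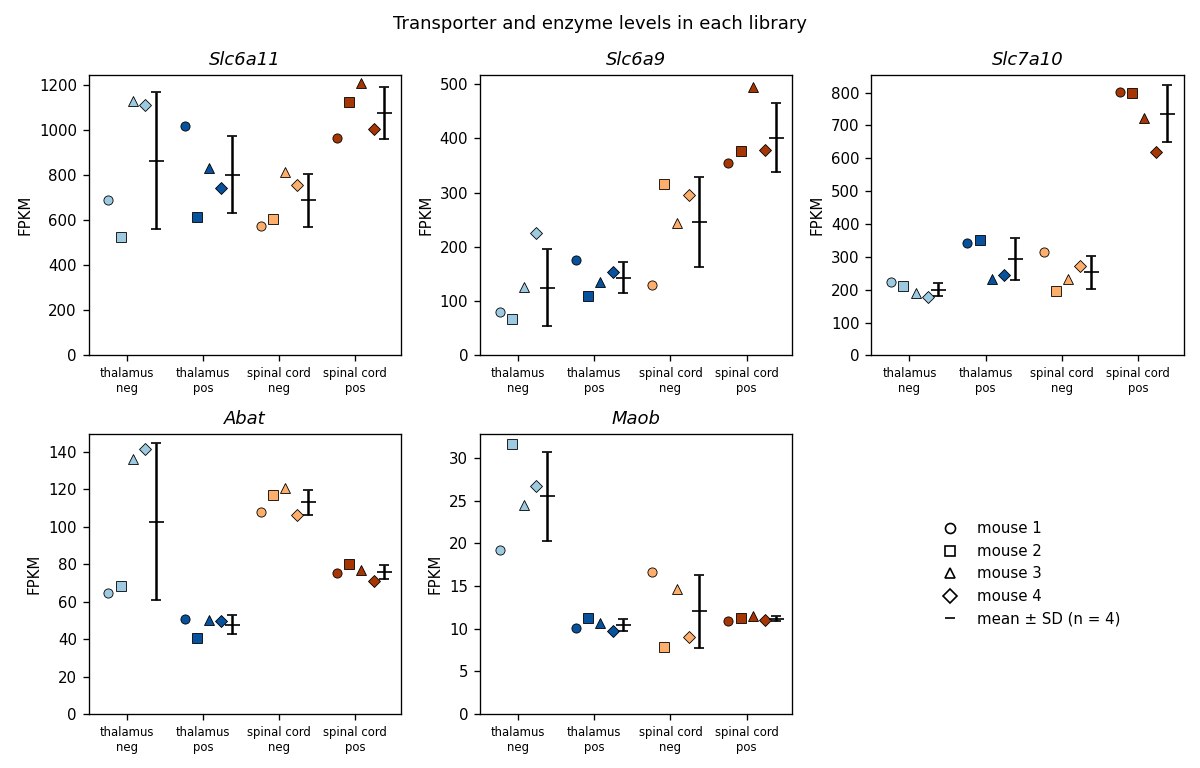
FPKM of each gene in each of the 16 libraries by group, with a symbol per mouse and the mean ± SD beside each group (n = 4). The 4 spinal cord positive libraries hold Slc7a10 at 618 to 801 FPKM, above all 12 others, and thalamus negative libraries hold Maob at 19.2 to 31.7 FPKM, above all 12 others.

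Abat (ENSMUSG00000057880, GRCm38 chromosome 16, 8513429 to 8621568, plus strand) encodes the enzyme that moves the amino group of GABA to 2-oxoglutarate. In mice 1 to 4 it was at 64.8, 68.5, 136 and 142 FPKM in thalamus negative and at 50.8, 40.4, 50.1 and 49.9 FPKM in thalamus positive libraries. Spinal cord values were 108, 117, 120.4 and 106 FPKM in mCherry-negative and 75.4, 79.9, 76.9 and 71.2 FPKM in positive libraries. Each positive library was the lower of its pair, and the gates did not overlap in either region.

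In the thalamus Abat had a mean of 103 ± 41.7 FPKM in the mCherry-negative and 47.8 ± 4.94 FPKM in the mCherry-positive gate (SD, n = 4), a log2 difference of -0.9995 ± 0.22 (SE) with a limma adjusted p of 0.0049. The call was lost without mouse 3 (-0.86, adjusted p = 0.0594) and without mouse 4 (-0.84, adjusted p = 0.0545), with a range of 9.62e-04 to 0.0594 over 19 other settings. In the spinal cord the difference was -0.57 ± 0.22, 75.9 ± 3.61 against 113 ± 6.91 FPKM, and missed the threshold in the fit over all libraries (adjusted p = 0.0922). It passed when only spinal cord libraries were fitted (adjusted p = 0.00686) and after rescaling to the pan-astrocyte markers (-1.07, adjusted p = 4.81e-04, 4.81e-04 to 0.235 over 19 other settings). Spinal cord positive libraries all lay above thalamus positive ones, by 0.66 ± 0.22 (adjusted p = 0.11), which passed when only these groups were fitted (adjusted p = 0.0025, 0.0025 to 0.714 over 19 other settings). Thalamus negative libraries spread over a wide range, and the regions overlapped in that gate (0.23 ± 0.22, adjusted p = 0.612). From high to low the group means ran spinal cord negative, thalamus negative, spinal cord positive and thalamus positive, and only the last pair of neighbours had ranges that stayed apart.

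The same thalamus negative libraries were high in Slc6a11, Abat and Aldh1l1. Aldh1l1 was at 31.04 and 38.3 FPKM in mice 3 and 4 and at 14.7 and 15.8 FPKM in mice 1 and 2. Slc7a10 ran the other way, with mice 3 and 4 lowest at 189 and 178 FPKM. The ependymal marker sum was 690 and 539 FPKM in mice 1 and 2 and 365 and 360 FPKM in mice 3 and 4, and the pan-astrocyte sum was 7452 and 6722 against 8852 and 8079 FPKM. Mice 3 and 4 were also higher in the neuron sum (82.4 and 76.3 against 32.7 and 58.3 FPKM), the oligodendrocyte precursor sum (282 and 239 against 198 and 167 FPKM) and the mural and fibroblast sum (107.5 and 97.5 against 71.8 and 89.6 FPKM). The part of these differences in the results was not tested.

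Maob (ENSMUSG00000040147, GRCm38 chromosome X, 16709282 to 16817366, minus strand) encodes an enzyme of the outer mitochondrial membrane. In mice 1 to 4 it was at 19.2, 31.7, 24.5 and 26.7 FPKM in thalamus negative and at 10.1, 11.3, 10.7 and 9.71 FPKM in thalamus positive libraries. Spinal cord libraries held it at 16.7, 7.89, 14.7 and 9.01 FPKM in mCherry-negative and at 10.9, 11.3, 11.5 and 11.1 FPKM in positive libraries. The thalamus negative libraries stood apart from all others, and the positive libraries of both regions lay within 9.71 to 11.5 FPKM.

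In the thalamus Maob had a log2 difference of -1.19 ± 0.21 (SE) between positive and negative libraries, lower in 4 of 4 mice, with a limma adjusted p of 9.41e-04. It passed in all 19 other settings (-1.32 to -1.05). In the spinal cord the difference was -0.04 ± 0.21, with 2 mice higher and 2 lower (adjusted p = 0.923), and its sign turned without negative mouse 1 or 3. Between regions the negative libraries differed by -1.06 ± 0.21 (adjusted p = 0.00449), a call that was lost without mouse 2 (-0.79, adjusted p = 0.0672), without mouse 4 (-0.92, adjusted p = 0.0758) and when only these groups were fitted (adjusted p = 0.127, 0.00139 to 0.127 over 19 other settings). The positive libraries differed by 0.10 ± 0.21 (adjusted p = 0.9). The test of whether the gate difference differed between regions gave 1.15 ± 0.30 with an adjusted p of 0.0561. It passed without thalamus negative mouse 1, spinal cord negative mouse 1 or 3, or mouse 1 altogether (adjusted p = 0.018 to 0.0438, and 0.018 to 0.341 over 26 other settings). By group mean thalamus negative (25.5 ± 5.18 FPKM) was followed by spinal cord negative (12.1 ± 4.28), spinal cord positive (11.2 ± 0.24) and thalamus positive (10.4 ± 0.68; SD, n = 4). Only the first of these neighbouring pairs had ranges that stayed apart. By group mean the ependymal marker sum, given above, was also highest in thalamus negative libraries. So were the neuron sum (62.4 FPKM) and the mural and fibroblast sum (91.6 FPKM). The oligodendrocyte, oligodendrocyte precursor and endothelial sums were highest in spinal cord negative libraries. Among thalamus negative libraries, mouse 1 had the highest ependymal sum (690 FPKM) and the lowest Maob (19.2 FPKM). Mouse 2 followed in the ependymal sum (539 FPKM) and had the highest Maob (31.7 FPKM). The part of other cells in the Maob differences was not tested.

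Maob lies on the X chromosome, and mouse 1 was the only one with Xist above 1.46 FPKM (175 to 468 FPKM) and with Ddx3y under 0.1 FPKM (0.0717 to 0.0976 FPKM), as in a female. Its Maob value lay among those of the other mice in thalamus positive libraries. It was the lowest in thalamus negative and spinal cord positive libraries and the highest in spinal cord negative ones.

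Within a library the levels can be set against Slc6a11, which takes away any scaling of the whole library. FPKM is per length, so levels of different genes can be set side by side. The ratios of Slc6a9 and Slc7a10 are uncertain, since their exons overlap those of Ccdc24 and Lrp3 and the use of strand is unknown. Slc6a11 was itself higher in positive than in negative spinal cord libraries without overlap (means of 1075 and 687 FPKM). A gate difference of a ratio there therefore also depends on Slc6a11. Abat was at 9.40% to 13.1% of Slc6a11 in thalamus negative and 4.99% to 6.70% in thalamus positive libraries, and at 14.1% to 19.3% and 6.36% to 7.83% in those of the spinal cord. The gates did not overlap in either region. Slc6a9 was at 11.1% to 20.8% of Slc6a11 in all 8 thalamus libraries and at 22.7% to 52.0% in all 8 spinal cord libraries. Slc7a10 was at 59.7% to 83.2% in spinal cord positive libraries, above the 16.0% to 57.4% of all others. Maob was at 0.95% to 1.84% in positive libraries and at 1.19% to 6.04% in negative ones. These ratios were added after the values were seen and carry no test.

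**Figure D3:**
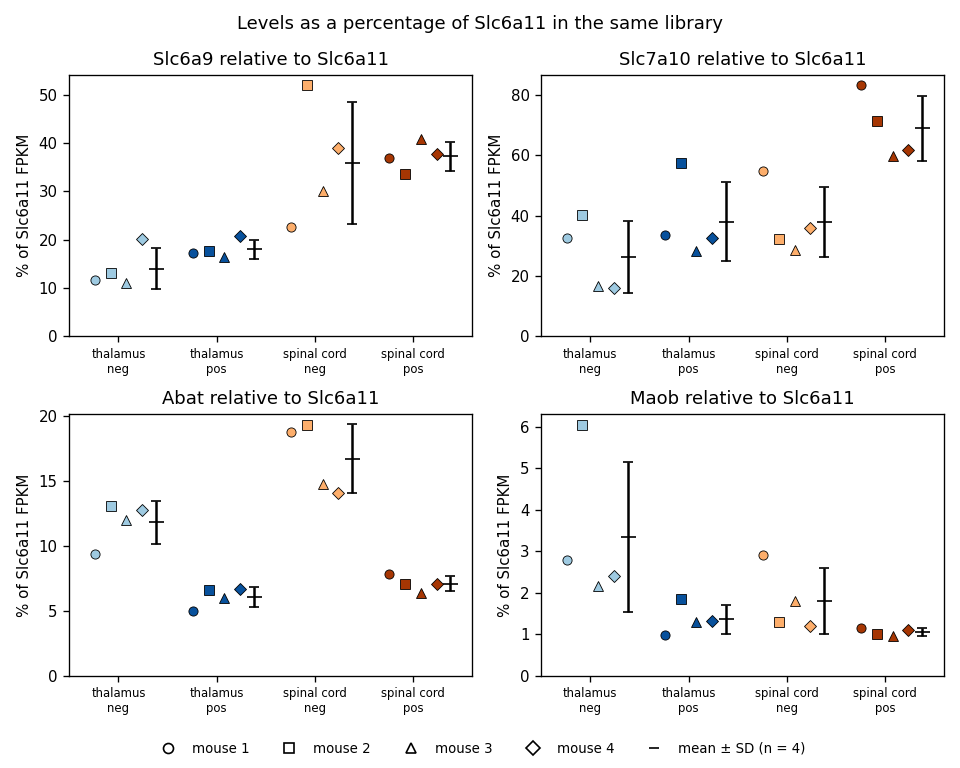
Level of each gene as a percentage of the Slc6a11 FPKM of the same library, by group, with a symbol per mouse and the mean ± SD (n = 4). Slc6a9 separates the regions, at most 20.8% in the thalamus and at least 22.7% in the spinal cord, and Abat separates the gates within each region. Slc6a11 was itself higher in positive than in negative spinal cord libraries, and exons of Slc6a9 and Slc7a10 overlap those of other genes.

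Other genes of GABA, glycine and serine handling were counted from a list of 23, of which 18 reached 1 FPKM in at least 4 libraries and were tested. Positive thalamus libraries had 1 higher and 6 lower, while 11.6% of all features were higher and 13.6% lower. Positive spinal cord libraries had 2 higher and 3 lower, beside 9.04% and 10.5% of all features. Between regions 2 were lower in the spinal cord in negative libraries (4.54% of all features) and 2 were higher in positive ones (4.22%). In these 4 comparisons the list medians were -0.43, -0.15, -0.05 and 0.15 on the log2 scale, beside 0.06, 0.09, -0.0041 and -0.0014 for all features. The genes of GABA synthesis, of vesicle loading and of neuronal glycine transport were low. Slc32a1, the vesicular transporter gene, was listed at 0 in all 8 thalamus libraries and reached 0.447 FPKM in the spinal cord, the glycine transporter gene Slc6a5 reached 1.25 FPKM, and the GABA synthesis gene Gad1 reached 2.32 FPKM. Gad2, the other GABA synthesis gene and the only one of these to be tested, was at 1.54 to 4.76 FPKM in thalamus negative, 0.961 to 1.35 in thalamus positive, 0.776 to 2.44 in spinal cord negative and 2.09 to 3.38 FPKM in spinal cord positive libraries. It passed in none of the comparisons, with a difference of -0.68 ± 0.26 between the thalamus gates (SE; limma adjusted p = 0.0741) and of 0.66 ± 0.26 between the regions in positive libraries (adjusted p = 0.188, higher in 4 of 4 mice). Slc1a5, Amt and Gcsh passed in none of the comparisons either.

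Slc6a13 and Slc6a12, whose products carry GABA and betaine at barriers and in other tissues, reached 0.548 and 2.18 FPKM. Slc3a2 encodes the heavy chain that brings Slc7a10 to the membrane. It rose in positive spinal cord libraries by 0.89 ± 0.15 (188 ± 20.9 against 101 ± 13.5 FPKM; adjusted p = 8.91e-04), lost only with the pan-astrocyte rescaling (0.38, adjusted p = 0.078, 8.09e-04 to 0.078 over 19 other settings). It was also higher in the spinal cord in positive libraries (0.79 ± 0.15, adjusted p = 0.00577), as Slc7a10 was, a call lost without mouse 3 (adjusted p = 0.103) and with that rescaling (0.22, adjusted p = 0.284, 0.00371 to 0.284 over 19 other settings).

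Slc1a4, the gene of the serine and alanine exchanger ASCT1, rose in positive libraries of both regions, by 1.02 ± 0.21 (thalamus, adjusted p = 0.00311) and by 1.56 ± 0.21 (spinal cord, adjusted p = 1.24e-04), and kept both calls in all 19 other settings. It was lower in the spinal cord than in the thalamus in negative libraries, with a difference of -1.17 ± 0.21 (adjusted p = 0.00245), which was lost without mouse 4 and when only these groups were fitted (adjusted p = 0.054 and 0.0838, 1.43e-04 to 0.0838 over 19 other settings).

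The second enzyme of GABA breakdown, the succinic semialdehyde dehydrogenase gene Aldh5a1, fell in positive thalamus libraries by 0.71 ± 0.20 (54.2 ± 4.95 against 93.3 ± 31.8 FPKM, adjusted p = 0.0192). The call was lost in 6 of 19 other settings (adjusted p = 0.00204 to 0.147), among them leaving out thalamus negative mouse 3 or 4 or positive mouse 2. In the spinal cord it was at -0.23 ± 0.20 (adjusted p = 0.461). Maoa, the related monoamine oxidase gene, fell in the thalamus by 0.43 ± 0.15 (adjusted p = 0.0446), a call lost in 13 of 19 other settings, including without any 1 of 7 of the 8 thalamus libraries (adjusted p = 0.0204 to 0.28 over all).

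Of 7 genes of serine synthesis and conversion, 3 were lower in positive thalamus libraries, where 13.6% of all features were, and 2 in positive spinal cord libraries, where 10.5% were. Psat1, a phosphoserine aminotransferase gene, fell in positive libraries by 0.81 ± 0.17 (thalamus, adjusted p = 0.00337) and by 0.74 ± 0.17 (spinal cord, adjusted p = 0.00663), the latter lost without mouse 3 (adjusted p = 0.0777, 1.9e-04 to 0.0777 over 19 other settings). Srr, the gene of serine racemase, which makes D-serine, fell by 0.70 ± 0.18 and 0.63 ± 0.18 (adjusted p = 0.0124 and 0.027). Srr lost its call in 4 of 19 other settings in the thalamus (up to 0.103) and in 7 of 19 in the spinal cord (up to 0.162), there also without negative mouse 1 or 2 or positive mouse 1, 2 or 4. Psph, the phosphoserine phosphatase gene, fell in the thalamus by 1.08 ± 0.30 (adjusted p = 0.0183), lost without positive mouse 4 and without mouse 2, 3 or 4 (adjusted p = 0.0535 to 0.146). Phgdh, Shmt1, Shmt2 and the D-serine oxidase gene Dao did not pass in any of these comparisons.

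Of the glycine cleavage genes, Gldc was at 7.02 ± 4.62 FPKM in thalamus negative libraries, 3.03 ± 0.37 in thalamus positive, 1.76 ± 0.31 in spinal cord negative and 2.97 ± 0.25 in spinal cord positive ones (SD, n = 4). Its thalamus difference of -0.84 ± 0.28 (adjusted p = 0.0396) was lost in 13 of 18 other settings, including without negative mouse 1 or 2 or any 1 positive library (adjusted p = 0.0167 to 0.141). Between regions Gldc was lower in the spinal cord in negative libraries (-1.39 ± 0.28, adjusted p = 0.00482), lost when only these groups were fitted (0.144, 0.00225 to 0.144 over 18 other settings). Dld was higher in the spinal cord in positive libraries by 0.77 ± 0.14 (adjusted p = 0.00372). The call was lost without mouse 4 (adjusted p = 0.0642) and with the pan-astrocyte rescaling (0.20, adjusted p = 0.398, 6.64e-04 to 0.398 over 19 other settings). Slc7a8, with group means of 0.373 to 1.14 FPKM, was lower in positive spinal cord libraries (-0.64 ± 0.19, adjusted p = 0.0292), a call lost in 9 of 18 other settings, including without negative mouse 3 or 4 or positive mouse 1, 2 or 4 (up to 0.184).

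**Figure D4:**
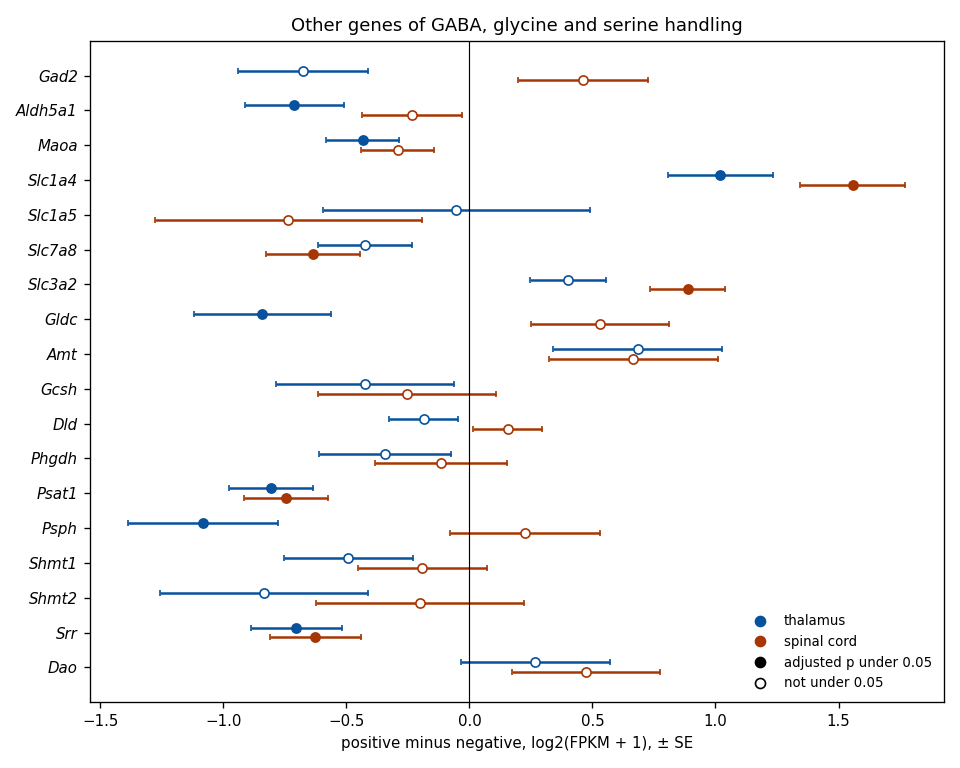
Positive minus negative difference on the log2(FPKM + 1) scale with its SE for the 18 tested genes of the list in the thalamus and the spinal cord, from the limma fit over 16 libraries; filled points have an adjusted p under 0.05. Slc1a4 lies highest in both regions (1.02 and 1.56), and Psat1 and Srr are lower in both.

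The protein-coding genes whose levels ran most like those of each member were found by Pearson correlation of log2(FPKM + 1) across the 16 libraries, which share groups, among 7450 genes with a mean of at least 5 FPKM. For Slc7a10 they were Arxes2, Elovl5 and Itih3 (r = 0.95, 0.94 and 0.94), all highest in spinal cord positive libraries; Elovl5, a fatty acid elongase gene, had means of 94.0, 128, 113 and 252 FPKM in thalamus negative, thalamus positive, spinal cord negative and spinal cord positive libraries. For Abat they were Clic4, Kcne1l and Tmbim6 (r = 0.97, 0.97 and 0.96). For Slc6a11 they were Ctsf, Trak1 and Etv5 (r = 0.90, 0.89 and 0.88), and for Slc6a9 Chil1, Fgfrl1 and Klhl24 (r = 0.92, 0.91 and 0.90). For Maob they were Emb, Cdhr4 and Cpe (r = 0.93 each). Emb and Cdhr4 were at 26.2 and 26.7 FPKM in thalamus negative libraries and at most at 1.07 FPKM in the other group means, while Maob kept 10.4 to 12.1 FPKM there.

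The authors' deposited table, which compares positive with negative libraries and holds 444 features, gave 3 of the 5 genes. It listed a log2 fold change of 1.24 ± 0.28 for Slc7a10, -0.77 ± 0.20 for Abat and -0.84 ± 0.23 for Maob (standard errors in the authors' deposited table), with adjusted p = 8.93e-05, 6.64e-04 and 0.00204. For Maob this single value stands beside differences of -1.19 (thalamus) and -0.04 (spinal cord) from the fit above. From the list of other genes the authors' deposited table held Slc1a4 (1.16), Slc3a2 (0.64), Aldh5a1 (-0.55) and Psat1 (-0.84) as log2 fold changes.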

How the data were processed

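Per the labels' protocols, RNA of 16 sorted populations was isolated with a Qiagen micro kit, and a NuGEN kit made the libraries. Per the submitters' processing notes the build was GRCm38 and the tools included DESeq2, Cufflinks, Cuffnorm, HTSeq 0.6.1p1, TopHat2 2.0.11, Bowtie2 2.2.3 and FastQC, whose roles are not stated. The authors deposited FPKM values of 39171 features in the 16 libraries. They also deposited a comparison table with group means in FPKM, p-values, a test score, a mean signal, and log2 fold changes with standard errors. Cufflinks-type FPKM values need not be whole reads, so depth is unknown and no counting interval is given.

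The 16340 features that reached 1 FPKM in 4 or more libraries entered a limma fit (version 3.58.1, R 4.3.3) of log2(FPKM + 1), with 1 coefficient per group and a trended prior. P-values were adjusted over all of them. The added 1 FPKM makes fold changes of weakly expressed genes too small. Columns were matched to samples by the sample descriptions, and 0 pairs of libraries were identical. The members and lists were chosen with earlier results of these data known.

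Named genes were the 5 members, genes of the pathway list, and the 3 genes most correlated with each member. The pathway list of 23 genes leaves out 1 further gene, which is not reported here. Positions and overlaps come from GENCODE vM21 (GRCm38). Start regions come from a set of RefSeq regions that held the 3 transporters but not Abat or Maob.

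The mouse number pairs the libraries, since per the labels each number is 1 animal. Deviations from group means had a mean correlation of 0.036 over 24 same-mouse pairs and -0.012 over 72 other pairs. The fit was also tested on simulated normal values with the spread of each feature, for the thalamus gates only. It recovered 39% of 100 true log2 changes of 1 and 81% of 100 true changes of 2. Of 123 calls, 3 were false. Far fewer features passed there than the 4119 that passed between the real thalamus gates. Changes were planted only in better expressed features, and each feature had the same spread in every group. The shares recovered are therefore not those of the real comparisons. A gene that missed the threshold may still differ.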

Additional observations from a re-analysis of the deposited data

Results flagged for a closer look

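Of 60 groups of 4 libraries checked for the 15 genes with tested values in the text, 6 held a library far from the other 3, where chance flags about 1 in 20. Slc6a9 was at 495 FPKM in spinal cord positive mouse 3, against 355 to 378 FPKM in the others. Abat was at 40.4 FPKM in thalamus positive mouse 2, against 49.9 to 50.8 FPKM. A further 3 lay in thalamus positive libraries, with Psat1 at 109 FPKM in mouse 2 (102 to 103 in the others), Srr at 23.3 FPKM in mouse 2 (26.1 to 26.5) and Psph at 13.9 FPKM in mouse 4 (17.9 to 18.5). Aldh5a1 was at 74.1 FPKM in spinal cord negative mouse 2, against 92.0 to 94.8 FPKM.

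Gldc was lower in the positive library of all 4 mice in the thalamus and higher in all 4 in the spinal cord. The test of this difference gave 1.37 on the log2 scale with a limma adjusted p of 0.0904.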

How the results depend on the processing

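Each comparison was refitted under 19 other settings, and the difference between regions under 26. Of the members' calls, Slc7a10 in the spinal cord, Slc7a10 between regions in positive libraries, and Maob in the thalamus held in all of these. Slc7a10 in the thalamus was 0.53 with no filter (adjusted p = 0.0633) or with only the groups compared, and 0.43 to 0.63 when single libraries or mice were left out. Abat there ran from -1.22 to -0.82 when these were left out, and Slc6a11 there from -0.27 to 0.12, with 0.082 after rescaling to the pan-astrocyte markers. In the spinal cord, fitting only the groups compared made Slc6a11 (0.65) and Abat (-0.57) pass, the pan-astrocyte rescaling made Abat pass (-1.07), and Maob ran from -0.21 to 0.14 with libraries left out. Between regions, Maob in negative libraries was -1.06 with only the groups compared and -1.35 to -0.79 with libraries left out. In those libraries Slc6a9 was 1.13 with the pan-astrocyte rescaling (passing) and 0.68 to 1.39 with libraries left out. In positive ones Slc6a9 was 0.92 with that rescaling and 1.36 to 1.65 with libraries left out, Abat was 0.66 and passed with only the groups compared, and the rescaling turned Slc6a11 (-0.13) and Maob (-0.47). For the difference between regions it turned Slc6a9 (-0.21) and Abat (-0.21), Slc7a10 passed with the mouse as a replicate block (1.02), and with libraries left out Slc7a10 was 0.91 to 1.13 and Maob 0.91 to 1.44. The replicate block, paired by mouse, changed no other call of a member. The pan-astrocyte rescaling moved the median of all features to 0.20, -0.42, 0.07, -0.57 and -0.62 in the order of the comparisons, and the share of calls that were higher to 57.6%, 9.48%, 66.3%, 6.72% and 3.75%, against 45.9%, 46.2%, 53.7%, 69.2% and 44%.

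Counts of features called, with libraries or mice left out, ran from 2249 to 4855 for the thalamus gates (4119 with all), 1861 to 3006 for the spinal cord gates (3196), 976 to 1808 between regions in negative (1603) and 368 to 838 in positive libraries (996), and 129 to 659 for the difference (418). With only the groups compared the regional counts were 353 and 4227, with the pan-astrocyte rescaling 3779 in positive libraries and 1626 for the difference, and with a filter at 5 FPKM 271 for the difference. Counts moved by over 1.5 times without mouse 3 or 4 in both gate comparisons (thalamus 2249 and 2279, spinal cord 1861 and 2001) and without mouse 2 or 4 between negative libraries (1037 and 976). Between positive libraries they did so without mouse 2, 3 or 4 (457, 368 and 432), thalamus positive mouse 3 or 4 (649 and 644) or spinal cord positive mouse 2 (611). The cause of these changes was not tested. Depth is unknown, so no limit from counting can be given.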
